A study of Mus musculus with 8 samples.

Results

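The genes followed here were listed as markers of layer 5 intratelencephalic neurons and were measured in RNA from mouse mPFC. The 10 genes are Tcerg1l, Etv1, Deptor, Plxnd1, Dkk3, Ptn, Rorb, Lmo4, Scube1 and Il1rapl2. They were taken by name from the deposited table of array values, as probe sets annotated with that 1 gene symbol. Where a gene had several such probe sets, the one with the highest average signal stood for it. All 10 were on the array, out of 22180 genes named in this way. The 8 arrays fell into 4 groups of 2 arrays each. Every animal carried a ribosomal tag that Cre recombinase switches on and that bears green fluorescent protein (GFP), and CAV2-Cre, a canine adenovirus that carries Cre, had been injected in NAC or in VTA. Tagged ribosomes were collected from mPFC with GFP-trap, a GFP-binding reagent, which gave the NAC pull-down and the VTA pull-down. Unpurified RNA gave the NAC input and the VTA input, so inputs hold RNA of all mPFC cells although their labels name the projecting cells. Which cells take up the virus sets which cells are tagged, and the labels give no age, sex or strain. They also leave unsaid whether the 2 arrays in a group are from different animals. The p-values below therefore measure only the spread between these arrays, which may be technical.

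Intratelencephalic neurons are cortical pyramidal cells whose axons stay within the telencephalon and reach the cortex of both hemispheres and the striatum. In layer 5 they lie beside pyramidal tract neurons, whose axons leave the telencephalon for the midbrain, brainstem and spinal cord. The marker genes encode nuclear regulators (Tcerg1l, Rorb, Etv1, Lmo4), an inhibitor of mTOR kinase (Deptor), membrane receptors (Plxnd1, Il1rapl2) and secreted proteins (Dkk3, Ptn, Scube1). Several are used outside this cell type too: Rorb also marks layer 4, Etv1 is also found in layer 5 pyramidal tract neurons, and Ptn is also made by glia. For Tcerg1l, the difference between the pull-downs described below went the way of the called pyramidal tract markers.

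Values are log2 signals, so a difference of 1 is a doubling, and levels are compared between groups for 1 gene at a time. A gene was tested when its signal passed the array's own named-gene median on 2 or more of the 8 arrays. This left 11712 genes, and all 10 markers passed, each above the median on all 8 arrays. A gene is called higher or lower where limma's Benjamini-Hochberg adjusted p over the 11712 genes was under 0.05. Correlations between the arrays of a group were 0.981 to 0.991, with the lowest in the VTA pull-down, and those between groups were 0.973 to 0.988. Pull-downs were lower than inputs for most genes on the deposited scale, with a median over all genes of -0.11 averaged over both targets, and this moved to -0.05 after centring every array by its median and to 0.03 when the median over the tested genes was used instead. The averaged comparison called 1124 genes higher and 3742 lower as deposited, 1523 and 2561 after the first centring, and 2498 and 1753 after the second, which was chosen after seeing the data. For NAC the same 3 splits were 508 and 938, 561 and 633, and 905 and 643. For VTA they were 637 and 3034, 861 and 1724, and 1719 and 1083, while the median over all genes moved from -0.15 to -0.07 and 0.04. Between the pull-downs they were 49 and 240, 85 and 201, and 96 and 196, and for the difference of enrichment, defined below, 1 and 7, 2 and 6, and 2 and 4. Quantile normalization gave 1646 and 2697 on average, 711 and 803 in NAC, 953 and 1846 in VTA, 88 and 230 between the pull-downs and 0 and 2 for the difference of enrichment. The 6 tested genes of cortical glutamatergic neurons had a mean log2 signal of 10.58 to 10.75 on the 8 arrays.

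The 10 markers did not move as a group. One was called in the averaged pull-down against input (Rorb, lower), where 41.5% of all genes were called and 32% were called lower. One was called in NAC (Rorb, lower; 12.3% of all genes called), and 4 in VTA (Tcerg1l higher, Deptor, Plxnd1 and Rorb lower; 31.3% of all genes called, 5.44% higher and 25.9% lower). Between the pull-downs 1 marker was called (Tcerg1l, higher in VTA), against 2.47% of all genes, and 0.418% higher. Between the inputs no marker was called by limma, against 1.5% of all genes, and 2 had an unadjusted p under 0.05. The difference of enrichment, which is the VTA pull-down minus its input less the same for NAC, called no marker by limma, against 0.0683% of all genes, and 3 had an unadjusted p under 0.05. Leaving out VTA pull-down array 2 raised the averaged count to 4, and that between pull-downs to 2, and leaving out either VTA pull-down array gave 1 call between inputs. The VTA count fell to 2 without VTA pull-down array 1 or VTA input array 1, and the NAC count to 0 without NAC pull-down array 2 or either NAC input array. The median over the markers was close to that over all genes in each: -0.12 against -0.11 averaged, -0.02 against -0.06 in NAC, -0.18 against -0.15 in VTA, -0.09 against -0.04 between pull-downs, 0.10 against 0.06 between inputs and -0.15 against -0.09 for the difference of enrichment.

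**Figure D1:**
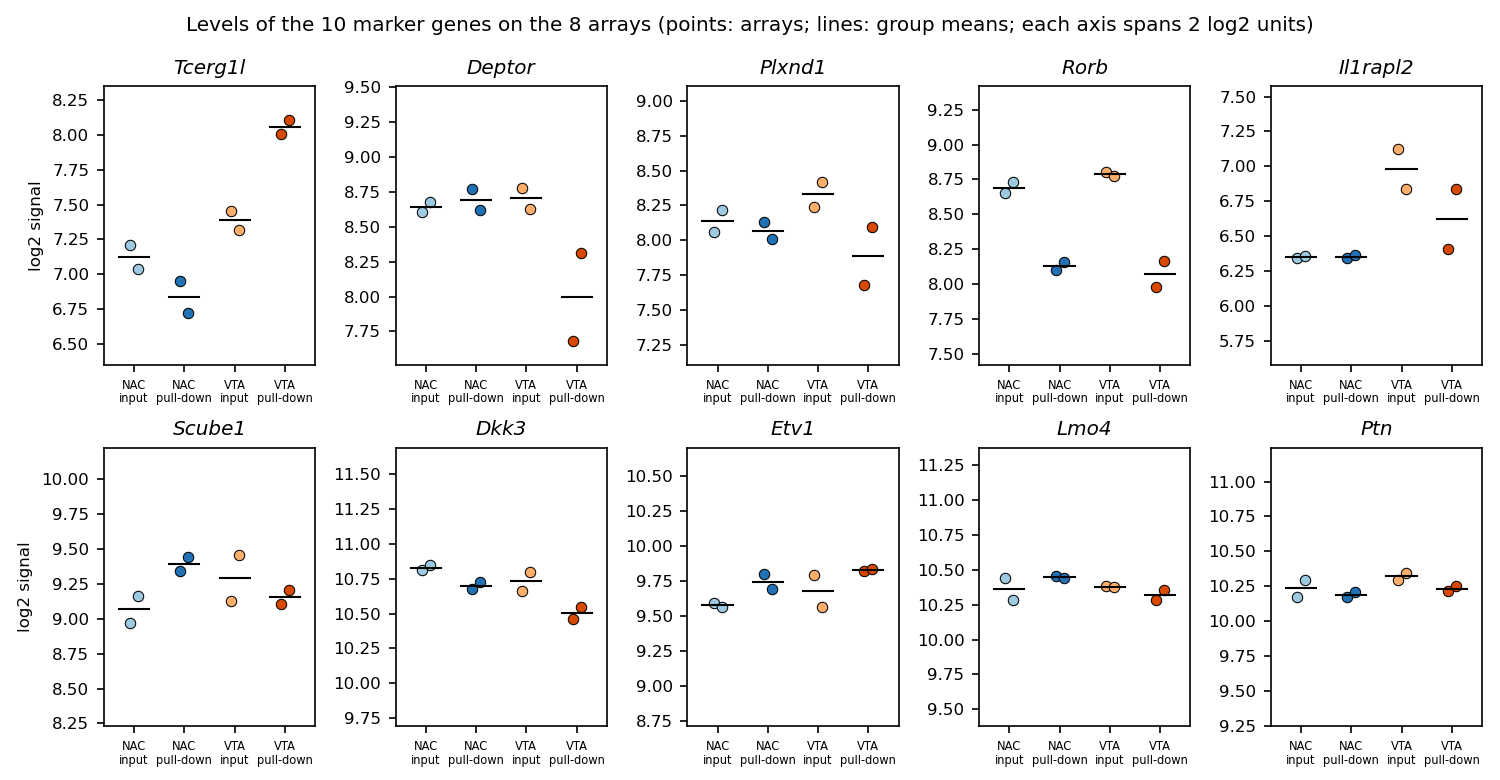
Log2 signal of each marker gene (vertical axes, each spanning 2 log2 units) on the 8 arrays by group; points are arrays and lines are group means. Tcerg1l is highest on both VTA pull-down arrays (8.01 and 8.11), and Rorb is lower on all 4 pull-down arrays than on all 4 input arrays.

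Tcerg1l, which encodes a nuclear protein, had the clearest pattern. Its log2 signal was 8.01 and 8.11 in the VTA pull-down, 7.45 and 7.32 in the VTA input, 7.21 and 7.04 in the NAC input, and 6.95 and 6.72 in the NAC pull-down. None of these groups overlapped, and the targets stood on opposite sides of their inputs. The VTA pull-down exceeded the NAC pull-down by 1.22 (SE 0.11, 95% interval 0.97 to 1.48, limma adjusted p = 0.000211), a 2.34-fold higher signal, which was the highest positive difference of the 11712 genes tested. It ranked 2 when NAC pull-down array 2 or VTA pull-down array 2 was left out, and 4 of 22180 with no filter on low values. The VTA pull-down also exceeded its own input by 0.67 (95% interval 0.42 to 0.93, adjusted p = 0.00412), or 1.59-fold. Both calls held in all 15 alternative settings, with differences of 1.11 to 1.34 and 0.60 to 0.87. In NAC the pull-down was 0.29 below its input (a difference of -0.29, 95% interval -0.54 to -0.03), which missed the threshold with an adjusted p of 0.121. The VTA input was 0.27 above the NAC input (95% interval 0.01 to 0.52, adjusted p = 0.437). The difference of enrichment was 0.96 (SE 0.16, 95% interval 0.60 to 1.32) and missed the threshold with an adjusted p of 0.12. It passed with an intensity trend in the variance (adjusted p = 0.0229) and with centring over the tested genes (1.08, adjusted p = 0.0303). Averaged over both targets, Tcerg1l differed from input by 0.19 (adjusted p = 0.0773), which was called with each array centred (0.25, adjusted p = 0.0315), with quantile normalization (0.28, adjusted p = 0.0144) and with centring over the tested genes (0.33, adjusted p = 0.00583). In bulk RNA of this kind, fewer cells of a type and less RNA per cell cannot be told apart.

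The bases before the start of Tcerg1l and of Rorb are printed because these were the genes whose calls held in most settings. Both are from RefSeq on the mouse build GRCm38.p6, 250 bases upstream of the annotated start, read 5′ to 3′ on the gene's own strand, here the minus strand for both. Tcerg1l lies at chr7:138397731-138397980 (69.6% G and C) and Rorb at chr19:19111197-19111446 (66% G and C), and the capitals mark TATAA.
Tcerg1l: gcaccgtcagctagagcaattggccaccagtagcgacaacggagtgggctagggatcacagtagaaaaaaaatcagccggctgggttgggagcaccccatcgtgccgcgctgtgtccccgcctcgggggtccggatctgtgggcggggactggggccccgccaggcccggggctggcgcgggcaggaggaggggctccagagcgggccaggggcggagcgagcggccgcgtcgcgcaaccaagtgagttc
Rorb: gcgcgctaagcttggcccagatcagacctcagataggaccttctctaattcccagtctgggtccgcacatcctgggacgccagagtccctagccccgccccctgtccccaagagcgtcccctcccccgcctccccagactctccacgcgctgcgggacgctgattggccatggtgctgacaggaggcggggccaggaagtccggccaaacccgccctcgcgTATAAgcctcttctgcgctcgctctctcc
Motifs were searched on both strands. AGGTCA is the half-site that nuclear receptors of the ROR family bind, and 14% of 32851 mouse promoter windows of 250 bases held it. CCGGAA is a core bound by ETS factors such as the product of Etv1, and was held by 12%. The TATA core, TATAA, was held by 22.8%. The Tcerg1l window held none of these letters, and the Rorb window printed here held only TATAA, 29 bases before the start, while a second Rorb window held none of them. Windows were matched for 8 of the 10 markers, all but Deptor and Dkk3. AGGTCA was found in the window of Plxnd1 and CCGGAA in none of the 8 genes, while TATAA was also found for Ptn and for 1 of the Etv1 windows. These matches describe the letters only.

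Rorb, an orphan nuclear receptor that acts as a transcription factor, was lower in pull-down than in input RNA for both targets. Its log2 signal was 8.10 and 8.16 in the NAC pull-down and 7.98 and 8.17 in the VTA pull-down, against 8.66 and 8.73 in the NAC input and 8.81 and 8.77 in the VTA input. All 4 pull-down arrays lay below all 4 inputs, and the pull-downs overlapped each other. The averaged difference was -0.64 (SE 0.07, 95% interval -0.80 to -0.49, limma adjusted p = 0.000346), or 1.56-fold lower, and it was called in all 15 alternative settings. In VTA it was -0.72 (adjusted p = 0.00239), which was also called in all 15. In NAC it was -0.56 (adjusted p = 0.00972). The NAC call was lost without NAC pull-down array 2 (adjusted p = 0.054), NAC input array 1 (0.0611) or NAC input array 2 (0.0746), and with no filter (0.0716). Between the pull-downs Rorb differed by -0.06 (95% interval -0.27 to 0.16), and between inputs by 0.10. The difference of enrichment was -0.15 (95% interval -0.46 to 0.16, adjusted p = 0.679), so no difference between the targets was detected. Genes of other cell types fell beside it. On average 8 of 10 astrocyte genes were called lower (median -0.44), against 32% of all genes. The astrocyte count was 7 of 10 in NAC, against 8.01% of all genes, and 6 of 10 in VTA, against 25.9%. The NAC count fell to 1 without NAC pull-down array 2 or either NAC input array, and the VTA count to 1 without VTA input array 1. Their summed signal, on the linear scale, was 6739 to 7158 in the NAC pull-down, 6937 to 7341 in the VTA pull-down, 9423 to 9741 in the NAC input and 9074 to 9410 in the VTA input. On average 6 of 7 oligodendrocyte genes, 6 of 7 microglial genes, 4 of 6 endothelial genes and 7 of 9 interneuron genes were also called lower. The part of these cells in the result for Rorb was not tested.

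Etv1, an ETS-family transcription factor that marks layer 5, had log2 signals of 9.80 and 9.69 in the NAC pull-down, 9.82 and 9.84 in the VTA pull-down, 9.59 and 9.56 in the NAC input, and 9.79 and 9.56 in the VTA input. The pull-down arrays were above their own inputs for each target, but 1 VTA input array overlapped the NAC pull-down. The differences from input were 0.17 in NAC (adjusted p = 0.292), 0.15 in VTA (adjusted p = 0.27) and 0.16 averaged (adjusted p = 0.0986). The averaged difference passed the threshold with each array centred (0.22, adjusted p = 0.0365), with quantile normalization (0.20, adjusted p = 0.0452), with an intensity trend and with centring over the tested genes. A second, dimmer Etv1 probe set, examined after seeing the data, read 6.24 to 6.59. It differed by -0.03 averaged (95% interval -0.21 to 0.16), so on it no change was detected in either direction. Between the pull-downs Etv1 differed by 0.09 (95% interval -0.14 to 0.31).

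Lmo4 encodes a LIM-only adaptor that joins transcription factor complexes. Its 8 arrays covered only 10.29 to 10.45, with NAC pull-down at 10.45 and 10.44, VTA pull-down at 10.29 and 10.35, NAC input at 10.44 and 10.29, and VTA input at 10.38 and 10.37. The VTA pull-down lay below the NAC pull-down and below its own input. The NAC pull-down lay above its input, with the closest arrays apart in the last digits only. The differences from input were 0.08 in NAC and -0.06 in VTA. No comparison was called, the averaged difference was 0.01 (95% interval -0.14 to 0.16), and the pull-downs differed by -0.13 (95% interval -0.34 to 0.08).

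Deptor encodes a protein that binds mTOR kinase and inhibits it. Its log2 signal was 8.77 and 8.62 in the NAC pull-down, 8.61 and 8.68 in the NAC input, and 8.78 and 8.63 in the VTA input, and these 3 groups overlapped. In the VTA pull-down it was lower on both arrays, at 7.68 and 8.31, which were also the 2 most distant arrays of a group for any marker. The VTA pull-down was -0.71 from its input (SE 0.17, 95% interval -1.09 to -0.33, limma adjusted p = 0.014), or 1.64-fold lower. That call was lost without VTA pull-down array 1 (-0.40, adjusted p = 0.0568) or VTA input array 1 (-0.64, adjusted p = 0.113), and with no filter (adjusted p = 0.0547). In NAC the difference from input was 0.05 (95% interval -0.33 to 0.43). The VTA pull-down was -0.70 from the NAC pull-down (95% interval -1.08 to -0.32) and missed the threshold with an adjusted p of 0.0668. Without VTA pull-down array 2 it was -1.02 (adjusted p = 0.00269), and it also passed with an intensity trend (adjusted p = 0.0104). A second, dimmer Deptor probe set read 7.95 and 7.98 in the NAC pull-down, 7.05 and 7.54 in the VTA pull-down, 7.68 and 7.56 in the NAC input, and 7.52 and 7.53 in the VTA input. On it the pull-downs differed by -0.67 (SE 0.14, adjusted p = 0.039), which passed, while the VTA difference from input was -0.23 (adjusted p = 0.234), which did not. Both probe sets gave the VTA pull-down the lowest mean, but on the second its arrays overlapped those of its input. Without VTA pull-down array 2 the averaged difference of the brighter probe set, -0.33 as reported (adjusted p = 0.052), was also called (-0.49, adjusted p = 0.0021), as it was with an intensity trend (adjusted p = 0.0178). The difference of enrichment was -0.76 (SE 0.24, adjusted p = 0.292) and -0.57 on the second probe set (adjusted p = 0.333).

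Plxnd1, a plexin that serves as a receptor for semaphorin guidance cues such as Sema3e, had log2 signals of 8.13 and 8.01 in the NAC pull-down, 7.68 and 8.10 in the VTA pull-down, 8.06 and 8.22 in the NAC input, and 8.24 and 8.42 in the VTA input. The VTA pull-down lay below its input on both arrays, and overlapped the NAC pull-down. The VTA difference from input was -0.44 (SE 0.14, 95% interval -0.75 to -0.13, limma adjusted p = 0.0377), or 1.36-fold lower. This call did not hold with each array centred (-0.36, adjusted p = 0.101), with quantile normalization (-0.32, adjusted p = 0.0893), with centring over the tested genes (-0.25, adjusted p = 0.176) or with no filter (adjusted p = 0.105). Nor did it hold without VTA pull-down array 1 (-0.23, adjusted p = 0.234), VTA input array 1 (adjusted p = 0.1), VTA input array 2 (-0.35, adjusted p = 0.186), or either NAC input array (adjusted p = 0.0532). Plxnd1 differed by -0.07 in NAC and by -0.18 between the pull-downs (95% interval -0.49 to 0.13). The averaged difference was -0.26 (adjusted p = 0.0606). It was called only without VTA pull-down array 2 (-0.36), with an intensity trend, and with same-numbered arrays of a target blocked (adjusted p = 0.0312). Its difference of enrichment was -0.37 (adjusted p = 0.473).

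Il1rapl2, an X-linked receptor-like protein of the interleukin-1 receptor family, stood apart from the other markers by differing most in size between the inputs. Its log2 signal was 6.34 and 6.36 in the NAC pull-down and 6.35 and 6.36 in the NAC input, against 7.12 and 6.83 in the VTA input and 6.41 and 6.84 in the VTA pull-down. All 4 arrays of NAC-injected animals were lower than all 4 of VTA-injected animals. The inputs differed by 0.63 (SE 0.14, 95% interval 0.31 to 0.95), which missed the threshold with an adjusted p of 0.0785. It passed with an intensity trend (adjusted p = 0.0443) and when either VTA pull-down array was left out (adjusted p = 0.018). The pull-downs differed by 0.27 (95% interval -0.05 to 0.59). Against input, the difference was -0.00053 in NAC (95% interval -0.32 to 0.32) and -0.36 in VTA (adjusted p = 0.083), and the VTA value passed without VTA pull-down array 2 (-0.57, adjusted p = 0.0138), as did the averaged one (-0.29, adjusted p = 0.0249).

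Dkk3, a secreted glycoprotein of the Dickkopf family, had log2 signals of 10.67 and 10.72 in the NAC pull-down, 10.46 and 10.54 in the VTA pull-down, 10.81 and 10.84 in the NAC input, and 10.66 and 10.80 in the VTA input. The VTA pull-down was below all 6 other arrays. Its difference from input was -0.23 (SE 0.09, adjusted p = 0.0896), from the NAC pull-down -0.20 (adjusted p = 0.348), and the averaged difference was -0.18 (adjusted p = 0.0533), none of which was called. The averaged and VTA differences passed only with an intensity trend in the variance (adjusted p = 0.00706 and 0.017).

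Ptn encodes pleiotrophin, a heparin-binding growth factor. Its log2 signal lay between 10.17 and 10.35 on all arrays, at 10.17 and 10.21 in the NAC pull-down, 10.22 and 10.25 in the VTA pull-down, 10.17 and 10.29 in the NAC input, and 10.30 and 10.35 in the VTA input. No comparison was called in any setting, and the averaged difference was -0.07 (95% interval -0.21 to 0.08), turning to 0.07 with centring over the tested genes. Scube1, a secreted and membrane-bound protein with EGF-like repeats, read 9.34 and 9.45 in the NAC pull-down, 9.11 and 9.20 in the VTA pull-down, 8.97 and 9.17 in the NAC input, and 9.13 and 9.46 in the VTA input. It was higher on both NAC pull-down arrays than on either NAC input array, by 0.33 (95% interval 0.05 to 0.61), with an adjusted p of 0.111. In VTA the groups overlapped and the difference was -0.14. The NAC difference passed only with an intensity trend (adjusted p = 0.0459), and the difference of enrichment was -0.47 (95% interval -0.86 to -0.07, adjusted p = 0.361).

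**Figure D2:**
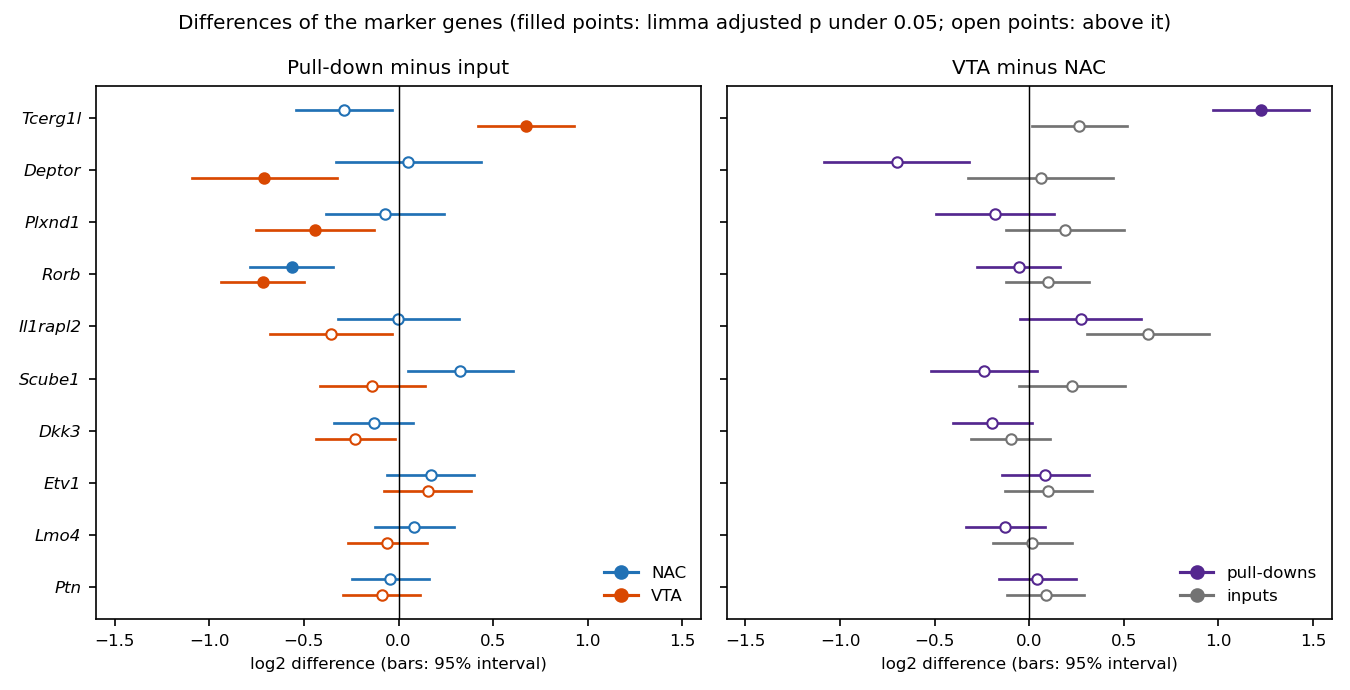
Log2 differences of the marker genes with 95% intervals: pull-down minus input for NAC and VTA (left) and VTA minus NAC for pull-downs and inputs (right); filled points passed a limma adjusted p of 0.05. Rorb is below 0 for both targets (-0.56 and -0.72), and Tcerg1l alone is filled between the pull-downs (1.22).

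Ordered by level, the 4 groups followed no common sequence over the 10 genes. Tcerg1l ran from NAC pull-down through NAC input and VTA input to VTA pull-down, with group means of 6.84, 7.12, 7.39 and 8.06, where only the step to the VTA pull-down was called between neighbours. Rorb ran from both pull-downs (8.07 in VTA and 8.13 in NAC) to both inputs (8.69 in NAC and 8.79 in VTA), with a called step only between pull-down and input. Deptor placed the VTA pull-down (7.99) below the other 3 groups (8.64 to 8.70), which did not differ beyond their spread. Plxnd1 and Dkk3 also had their lowest mean in the VTA pull-down, at 7.89 and 10.50, and so did Lmo4 at 10.32. Etv1 had its highest mean there, at 9.83, which was not called against any neighbour. Scube1 was highest in the NAC pull-down (9.40) and Il1rapl2 in the VTA input (6.98).

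Other lists give these genes a context, and they were drawn up with earlier results of these data known. Of 25 tested genes that mark intratelencephalic neurons in other layers or more broadly, 14 were called lower and none higher on average (limma, median -0.19), and 2 that were positive had an unadjusted p under 0.05. Of all genes, 32% were called lower and 9.6% higher in that comparison. The 14 lower genes include Calb1 (calbindin, -0.56), Kitl (a growth factor ligand, -0.55), Cdh12 (a cadherin, -0.66) and Rasgrf2 (-0.40), each called in all 15 alternative settings. In the same comparison 7 of 9 interneuron genes were called lower, and the part of other cell types in these calls was not tested. With each array centred the split was 2 higher and 10 lower, and with centring over the tested genes 3 and 8. Without NAC pull-down array 2, NAC input array 1 or VTA input array 1 it was 9 lower. In VTA 12 of the 25 were called lower, against 25.9% of all genes, and 7 with each array centred. The count fell to 5 without VTA pull-down array 1, 7 without VTA input array 2 and 2 without VTA input array 1. In NAC 4 were called lower, against 8.01% of all genes, and 2 higher, against 4.34%. The higher ones were Nptx2 (a secreted synaptic pentraxin, 0.44) and Rspo1 (a secreted Wnt agonist, 0.34). None of the 25 was called without NAC pull-down array 2 or either NAC input array, and 3 were called without either VTA input array.

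Between the pull-downs 3 of the 25 were called, against 2.47% of all genes, and all 3 were lower in VTA, against 2.05%: Nptx2 by -1.26, Slc30a3, the zinc transporter of synaptic vesicles, by -0.58, and Cdh12 by -0.50 (median of the list -0.02). Nptx2 read 9.13 and 9.11 in the NAC pull-down and 7.85 and 7.87 in the VTA pull-down, against 8.73 and 8.63 in the NAC input and 8.39 and 8.49 in the VTA input. It was thus above its input in NAC and below it in VTA, and its difference of enrichment of -1.02 was called, though in only 3 of 15 alternative settings and in none that left out an array. The Cdh12 call was lost in 6 of the 8 settings that left out an array, and the list's count fell to 1 without NAC pull-down array 1.

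Of 13 layer 5 pyramidal tract markers, 6 were called higher in the VTA than in the NAC pull-down and none lower (median 0.51, all genes -0.04). Of all genes, 0.418% were called higher and 2.05% lower. In the list 2 of the 13 differences were negative, the lowest at -0.36. The 6 called genes were Pou3f1 (0.99), Chst8 (0.88), Npr3 (0.79), Bcl11b (0.73), Parm1 (0.72) and Fezf2 (0.51). Of these, Fezf2 and Bcl11b encode transcription factors that specify this cell type. The count was 5 to 7 when single arrays were left out and 7 or 8 under the other scalings. The difference of Tcerg1l was larger than that of each of the 6 genes and in the same direction. Its values in this comparison therefore do not bear out its place among the intratelencephalic markers. The remaining 9 of the listed markers, from -0.70 to 0.27, had no call. The mean log2 signal over the 13 genes was 8.21 to 8.26 in the NAC pull-down, 8.63 to 8.68 in the VTA pull-down, 8.34 to 8.37 in the NAC input and 8.42 to 8.47 in the VTA input. Their summed linear signals overlapped between the pull-downs, at 9767 to 10435 for NAC and 9988 to 10351 for VTA. Their part in the difference of Tcerg1l was not tested. Layer 6 and subplate genes had no call between the pull-downs (0 of 9 by limma, median 0.06), although 2 of them, Crym, also a pyramidal tract marker here (0.51), and Cplx3 (-0.32), had an unadjusted p under 0.05. Under each of the 3 other scalings, and without either VTA input array, 1 of the 9 was called higher.

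**Figure D3:**
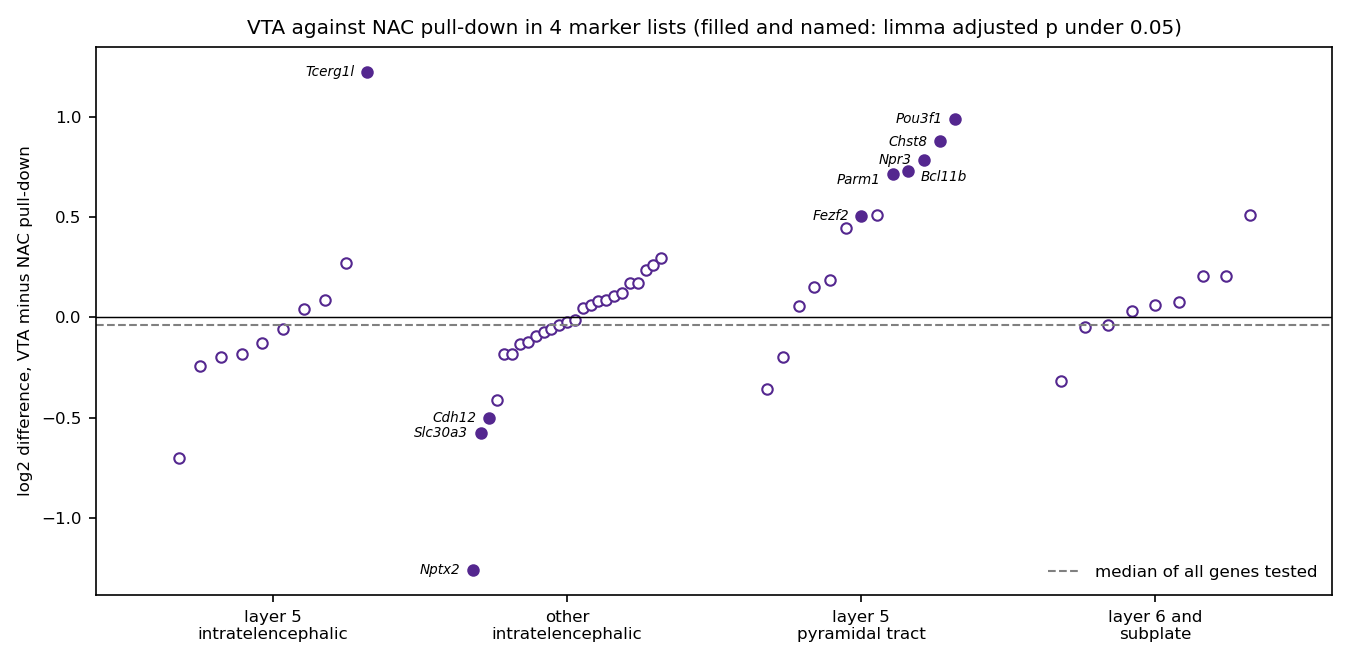
Log2 difference of the VTA from the NAC pull-down for each tested gene of 4 marker lists, sorted within a list; filled and named points passed a limma adjusted p of 0.05 and the dashed line is the median of all genes. Tcerg1l (1.22) stands above the 6 called pyramidal tract genes (0.51 to 0.99), and Nptx2 (-1.26) is the lowest point.

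Partners and relatives of the marker proteins were taken from a list chosen with earlier results of these data known, of which 39 genes were tested. On average 3 were called higher and 19 lower (median -0.19), against 9.6% higher and 32% lower over all genes. With each array centred the split was 3 and 13, with centring over the tested genes 7 and 11, and without NAC input array 1 it was 1 and 13. In NAC 1 was called higher and 7 lower, against 4.34% and 8.01% of all genes. In VTA the split was 2 and 14, against 5.44% and 25.9% of all genes. The lower calls in NAC fell to 0 without NAC pull-down array 2 or either NAC input array and to 1 without either VTA input array. Those in VTA fell to 5 without VTA pull-down array 1, 0 without VTA input array 1 and 7 without VTA input array 2.

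Deptor inhibits the mTOR complexes. Of 7 genes for their other components and their assembly factors, 4 were called lower on average, against 32% of all genes. These were Mtor, the kinase itself (-0.34), Rictor, a scaffold of the second complex (-0.59), Mlst8 (-0.30) and the assembly factor Tti1 (-0.33). Mtor and Rictor kept their calls in all 15 settings, and the count fell to 2 under each other scaling, with no filter, and without NAC pull-down array 2 or either NAC input array. Between the pull-downs, where Deptor differed by -0.70, none of the 7 was called by limma, 0 had an unadjusted p under 0.05, and their median was -0.12.

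Among plexins, the co-receptor Nrp1 and semaphorins, 7 of 10 were called lower on average (median -0.26), against 32% of all genes. Sema3e, the ligand of Plxnd1, differed by -0.38 and Sema3c by -0.49, both called in all 15 settings. Under the other scalings 2 to 5 of the 10 were called, and 4 with no filter or without NAC pull-down array 2, VTA pull-down array 1, NAC input array 1 or either VTA input array. Sema3e read 8.17 and 7.92 in the NAC pull-down, 7.93 and 8.10 in the VTA pull-down, 8.34 and 8.15 in the NAC input, and 8.65 and 8.49 in the VTA input, so the pull-down arrays lay apart from their own input in VTA and overlapped it in NAC. The VTA input also lay above both NAC groups.

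Dickkopf relatives and their receptors went both ways. Dkkl1, a secreted relative of the Dickkopf proteins, read 9.15 and 9.02 in the NAC pull-down and 8.40 and 8.35 in the VTA pull-down, against 8.23 and 8.07 in the NAC input and 8.58 and 8.60 in the VTA input. It was called higher in the NAC pull-down than in its input (0.93) and lower in the VTA than in the NAC pull-down (-0.71), both in all 15 settings. Its difference of enrichment of -1.15 was called too, in 5 of 15 alternative settings and in 1 of the 8 that left out an array. Dkk3 did not share these calls, with -0.13 in NAC and -0.20 between the pull-downs. The Wnt co-receptors Lrp5 and Lrp6 were both called lower on average (-0.35 for each), and the Dickkopf receptor Kremen2 was called higher (0.30), in 10 of 15 settings.

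Ptprz1, a receptor phosphatase bound by pleiotrophin, was called lower on average (-0.68) and for both targets (-0.68 in NAC and -0.67 in VTA), while Ptn itself was not called. The averaged call for Ptprz1 held in all 15 settings, that in NAC in 11 and that in VTA in 13. Lower calls made up 32% of all genes on average, 8.01% in NAC and 25.9% in VTA. On average 8 of 10 astrocyte genes and 4 of 7 oligodendrocyte precursor genes were called lower too. The part of these cells in the result for Ptprz1 was not tested. Relatives of Il1rapl2 were lower on average, where Il1rapl2 itself was not called (-0.18, limma adjusted p = 0.181). Il1rapl1 (-0.49), the co-receptor Il1rap (-0.65) and Ptprd (-0.41), a synaptic partner of this family, were all called on average in all 15 settings. Of all genes, 32% were called lower in that comparison. Among LIM-only proteins and their adaptors, 1 of 5 was called on average, Lmo3 (-0.45), which is a close relative of Lmo4. Scube3, the only tested relative of Scube1, was called lower (-0.29), in 6 of 15 settings, and Etv5, a relative of Etv1, was called higher in VTA (0.32), in 10 of 15.

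**Figure D4:**
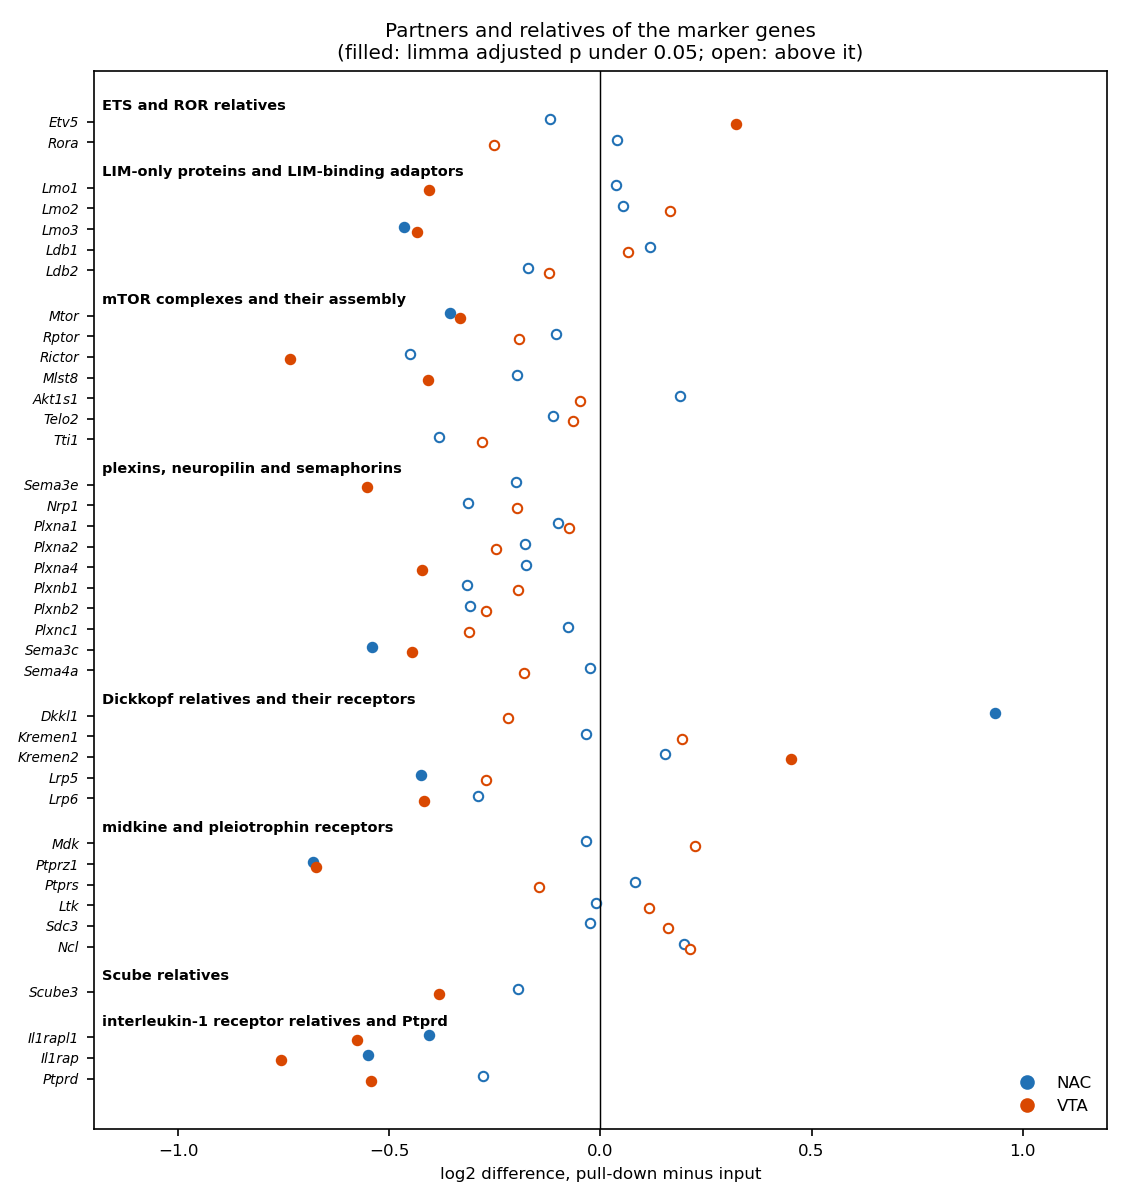
Pull-down minus input (log2) for the 39 tested partners and relatives, by family, with NAC in blue and VTA in orange; filled points passed a limma adjusted p of 0.05. Most points lie below 0, and Dkkl1 is at 0.93 in NAC and at -0.22 in VTA.

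Genes most like each marker were sought by Pearson correlation over the 8 arrays after each array was centred on its median over the tested genes. With 11712 candidates and 8 arrays in 4 groups, high values are a description of shape and are given with no p. Tcerg1l was closest to Ephb1 and Robo1, both axon guidance receptors (r = 0.969 for each), whose pull-downs differed by 0.35 and 0.63. Rorb was closest to Gabrb1, a GABA receptor subunit (r = 0.993), and Pggt1b (0.986), with averaged differences of -0.40 and -0.67. Deptor was closest to Slc26a8 (0.969) and 4430402I18Rik (0.963), and Plxnd1 to Sntg1 (0.936) and Socs2 (0.924). Il1rapl2 was closest to Actn2 (0.962) and Khdrbs2 (0.954), whose inputs differed by 0.58 and 0.42. Etv1 was closest to Fam122a (0.997) and Mdfi (0.975), and Dkk3 to Fam53b (0.982) and Tspan3 (0.948). Ptn was closest to Septin3 (0.978) and Zfp747 (0.963), Lmo4 to Fam3c (0.988) and Mcu (0.984), and Scube1 to 1700003E16Rik and Dnajb12 (0.956 for each). No marker was among the 2 closest genes of another marker.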

How the data were processed

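RNA from mPFC was measured on 8 Affymetrix arrays, 2 in each of 4 groups. The authors deposited 1 log2 value per probe set and array, made with Transcriptome Analysis Console per the submitters' processing notes. Its version and its normalization steps were not given in the sources used, and the values were used as deposited. The number of arrays limits the precision. Of 41345 probe sets, 23521 had 1 gene symbol in the platform annotation, 1814 several and 16010 none. Only single symbols were used, and 23328 of them matched by Entrez identifier a RefSeq table of GRCm38.p6. Per gene the probe set with the highest mean was kept.

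One model of 4 group means was computed in R 4.3.3 on the 8 arrays together with limma 3.58.1 (lmFit, eBayes; 4 residual and 6.07 prior degrees of freedom), since 2 arrays a group leave few degrees of freedom within a pair. Its 6 contrasts are those of the report, two-sided, each with Benjamini-Hochberg adjustment over 11712 genes. The fit was tested on simulated data. The scaling, filter, choice of probe set, replicate block, variance trend and each array left out were varied, with the calls recomputed over all genes each time. Named genes were the 10 markers, called genes of 2 lists (partners and relatives, other intratelencephalic genes) and the 2 genes most like each marker. Pyramidal tract genes were named as those counted, after their values were seen. The markers and lists were chosen with earlier results of these data known.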

Additional observations from a re-analysis of the deposited data

How the results depend on the processing

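Of the markers' differences under 15 alternatives and with the second probe sets, 827 kept their direction and their side of the threshold, 27 newly passed it, 17 no longer passed and 41 changed sign. The cause was not tested. Centring over the tested genes and the second probe sets of Etv1 and Deptor were chosen after seeing the data.

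The number of markers called on average was 1 as reported, 3 with each array centred, with quantile normalization and with centring over the tested genes, 2 with the replicate block, 5 with an intensity trend, and 1 to 4 with single arrays left out. In NAC it was 1 as reported, 0 with no filter, 2 with the trend and 0 to 1 with arrays left out. In VTA it was 4 as reported, 2 with no filter and 2 to 5 with arrays left out. Between pull-downs it was 1 as reported, 2 with the mean of a gene's probe sets, 2 with the trend and 1 to 2 with arrays left out. Between inputs it was 0 as reported, 1 with the trend and 0 to 1 with arrays left out. For the difference of enrichment it was 0 as reported and 1 with the trend or with centring over the tested genes.

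Sign changes were limited to differences that were not called. With the second probe set Etv1 was -0.027 averaged, -0.0008 in NAC and -0.053 in VTA, and Deptor 0.054 averaged and -0.099 between inputs. Deptor was -0.020 between inputs with the mean of probe sets. With each array centred, the difference of enrichment was 0.037 for Etv1 and 0.0076 for Ptn, Lmo4 was 0.025 in VTA and Il1rapl2 0.032 in NAC. With quantile normalization, the difference of enrichment of Etv1 was 0.0094, Ptn was 0.012 in NAC and Il1rapl2 0.034 in NAC. With centring over the tested genes, Ptn was 0.069 averaged, 0.032 in NAC and 0.11 in VTA, Plxnd1 0.0052 and Il1rapl2 0.075 in NAC, Lmo4 0.14 and Scube1 0.057 in VTA, Deptor -0.0074 and Lmo4 -0.050 between inputs, and the difference of enrichment 0.10 for Etv1, 0.022 for Dkk3 and 0.075 for Ptn.

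With single arrays left out, the ranges that crossed 0 were, for Etv1, -0.013 to 0.21 between inputs and -0.13 to 0.099 for the difference of enrichment. For Deptor they were -0.026 to 0.13 in NAC and -0.014 to 0.13 between inputs, and for Plxnd1 -0.15 to 0.0069 in NAC and -0.39 to 0.027 between pull-downs. For Ptn they were -0.10 to 0.015 in NAC and -0.10 to 0.015 for the difference of enrichment, and for Rorb -0.15 to 0.041 between pull-downs. For Lmo4 they were -0.026 to 0.050 averaged and -0.059 to 0.092 between inputs, for Scube1 -0.30 to 0.028 in VTA, and for Il1rapl2 -0.012 to 0.010 in NAC. A group left with 1 array is assumed to vary like the others.

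Over all genes, the calls in NAC were 1446 as reported, 105 with no filter and 149 to 1848 with arrays left out, and in VTA 3671, 1907 and 415 to 3713. On average they were 4866, and 3068 to 5065 with arrays left out. Between pull-downs they were 289 as reported, 113 with no filter, 532 with the trend and 151 to 335 with arrays left out, and between inputs 176, with 100 to 206. For the difference of enrichment they were 8 as reported, 2 with quantile normalization, 1 with no filter or the block, 30 with the trend and 1 to 8 with arrays left out.

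The labels number the arrays of each group 1 and 2 without saying that a number marks a shared animal or day. Deviations of same-numbered arrays correlated from -0.13 to 0.30 over the 6 pairs of groups. The highest, 0.30, was between the NAC pull-down and its own input, while the VTA pull-down and its input gave -0.02. The numbers were not taken as pairs, since the labels do not state it. For comparisons with input and the difference of enrichment, the replicate block paired each pull-down with the same-numbered input of its target. Between the pull-downs and between the inputs, the replicate number was added as a term instead. With this block Plxnd1 was also called on average (-0.26, limma adjusted p = 0.0312), and no other call of a marker changed.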
